A study of Rattus norvegicus with 14 samples.

Results

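The genes described here code for the core proteins of pre-mRNA splicing and the proteins that coat nascent transcripts. They were chosen by symbol, as every gene whose probe set carries a single symbol that begins with Srsf and a digit, Hnrnp, Snrp, or Sf3a or Sf3b and a digit. This gave 47 of the 14217 genes with a probe set, namely 11 SR protein genes (1 of them the pseudogene Srsf7-ps4), 17 hnRNP genes, 10 snRNP protein genes and 9 genes of the SF3 complexes. Each gene was read from 1 probe set, the one with the highest mean log2 signal over the 14 arrays, and 46 of the 47 passed the filter on low signals and were tested. Srsf7-ps4 did not pass, since its signal was above the array median on 0 of 14 arrays.

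All RNA came from peripheral blood mononuclear cells (PBMC) of female Wistar rats, separated from whole blood on a Ficoll gradient, with 1 Affymetrix rat230 2.0 array per sample. Collagen-induced arthritis (CIA) is a model in which immunization with type II collagen gives joint inflammation, and mechanical stimulation (MS) is the insertion and twirling of a thin needle at points of the back and leg. MTXMS_A (MTXAP in the labels, 3 arrays) were arthritic rats after 34 days of stimulation with methotrexate, an antifolate used against arthritis, MS_A (AP, 3 arrays) were arthritic rats after 34 days of stimulation alone, and NOCIAMS_A (HAP, 3 arrays) were healthy rats after 34 days of stimulation. CIA_B (RA, 2 arrays) were arthritic and NOCIA_B (NORA, 3 arrays) healthy rats before any therapy. Every comparison of a day 34 group with a group before therapy holds the 34 days as well as the treatment, since none of these 14 arrays comes from unstimulated rats at day 34. Rats were killed at sampling, so no array of one group shares an animal with an array of another. The labels do not state that each array is a separate rat, so p-values measure the spread between these arrays.

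Splicing removes introns in a complex of small nuclear ribonucleoproteins (snRNPs). Most snRNPs hold a small nuclear RNA with a ring of Sm proteins (Snrpb, Snrpd1, Snrpd2, Snrpd3, Snrpe, Snrpf) and proteins of their own, such as Snrpa of U1 and Snrpa1 and Snrpb2 of U2. The SF3a and SF3b complexes belong to the U2 snRNP and hold it at the branch point. SR proteins bind exons and mostly promote their inclusion, whereas many hnRNPs bind silencers and introns and act against them, and the balance of both shapes splice choice in lymphocytes. Hnrnpll is known from mouse and human T cells as a regulator of the exons of Ptprc, the gene of CD45. These arrays measure the 3′ end of transcripts, so the values below are transcript levels and say nothing of splice isoforms.

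Promoters of 44 of the 47 genes were found in the RefSeq table (build GRCr8), and the 250 bases before each start were searched on both strands for the core bound by ETS factors (CCGGAAG), the SP1 box (GGGCGG), the CCAAT box, the TATA box (TATAAA) and the E box (CACGTG), none of which contains another. The 4 promoters printed belong to the 4 genes that were higher in MTXMS_A than in MS_A at an unadjusted p under 0.05 in limma (Snrpa1, Hnrnpd, Hnrnph1 and Srsf11). These genes were picked by their values on these same arrays. Their windows show only which of the 4 hold the motif and say nothing of a shared control. Capitals mark CCGGAAG on either strand.
Snrpa1 (chr1:129051800-129052049, + strand): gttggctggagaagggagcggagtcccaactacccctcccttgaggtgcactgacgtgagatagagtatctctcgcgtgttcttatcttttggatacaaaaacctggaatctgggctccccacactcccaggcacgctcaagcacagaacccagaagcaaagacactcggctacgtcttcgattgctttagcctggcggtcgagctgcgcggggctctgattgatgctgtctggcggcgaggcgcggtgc
Hnrnpd (chr14:9919507-9919756, + strand): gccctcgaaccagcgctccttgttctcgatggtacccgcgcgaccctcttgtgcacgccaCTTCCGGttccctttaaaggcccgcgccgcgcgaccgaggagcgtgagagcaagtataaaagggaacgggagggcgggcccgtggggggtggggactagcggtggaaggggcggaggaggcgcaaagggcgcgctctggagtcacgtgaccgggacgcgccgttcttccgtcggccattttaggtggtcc
Hnrnph1 (chr10:35194383-35194632, + strand): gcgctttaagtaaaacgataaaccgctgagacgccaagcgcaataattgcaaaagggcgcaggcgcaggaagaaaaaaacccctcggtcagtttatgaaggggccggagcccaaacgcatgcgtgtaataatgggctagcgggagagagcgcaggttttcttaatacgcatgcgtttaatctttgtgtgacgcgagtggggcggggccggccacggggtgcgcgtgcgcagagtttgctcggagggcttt
Srsf11 (chr2:249760259-249760508, - strand): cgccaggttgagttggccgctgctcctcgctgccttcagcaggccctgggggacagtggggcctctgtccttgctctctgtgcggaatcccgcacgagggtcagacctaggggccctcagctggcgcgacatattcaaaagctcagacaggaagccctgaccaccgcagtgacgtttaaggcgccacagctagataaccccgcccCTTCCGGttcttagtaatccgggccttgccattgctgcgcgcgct
The ETS core was present in the windows of Hnrnpd and Srsf11 and not in those of Snrpa1 and Hnrnph1. Over all 44 promoters it was present in 13 (29.5%), against 16.3% of the 8442 promoters of genes tested and 7.27% of all 33469 promoters in the table. The CCAAT box was present in 22 of the 44 (50%, against 36.0% for genes tested and 34.0% for all promoters) and the SP1 box in 27 (61.4%, against 59.0% and 30.5%). The TATA box was present in 5 (11.4%, against 6.63% and 12.9%) and the E box in 4 (9.09%, against 8.55% and 5.59%). These are matches of letters and not sites of binding.

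The genes were well detected. Of the 47, 43 had a signal above the array median on all 14 arrays (91.5%, against 51.7% of all genes with a probe set), and the exceptions were Srsf7-ps4 (0 arrays), Snrpn (2 arrays), Srsf7 (6 arrays) and Hnrnpll (13 arrays). Signals on the log2 scale averaged 14.32 for Hnrnpa3, 14.11 for Snrpe, 13.78 for Sf3b1, 13.72 for Hnrnph1 and 13.61 for Srsf2, and 5.21 for Snrpn, 5.67 for Srsf7-ps4, 6.78 for Srsf7, 7.79 for Hnrnpll and 8.0 for Srsf3. Probes differ in binding strength, so these values describe each probe set and do not rank the transcripts. Over the 14 arrays, 40 of the 46 tested genes varied with an SD under 0.5 log2 units (median 0.26, lowest 0.11 for Sf3b3). The SD was largest for Snrpn (1.37), Snrpa1 (0.90), Snrpd1 (0.73), Hnrnpll (0.70) and Srsf7 (0.64). Snrpn, which encodes the Sm protein SmN, was read near background, between 3.31 and 7.34, so its spread is that of a dim probe set. Hnrnpk, Snrpc and Snrpg had no probe set with a single symbol and were not measured by this rule.

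**Figure D1:**
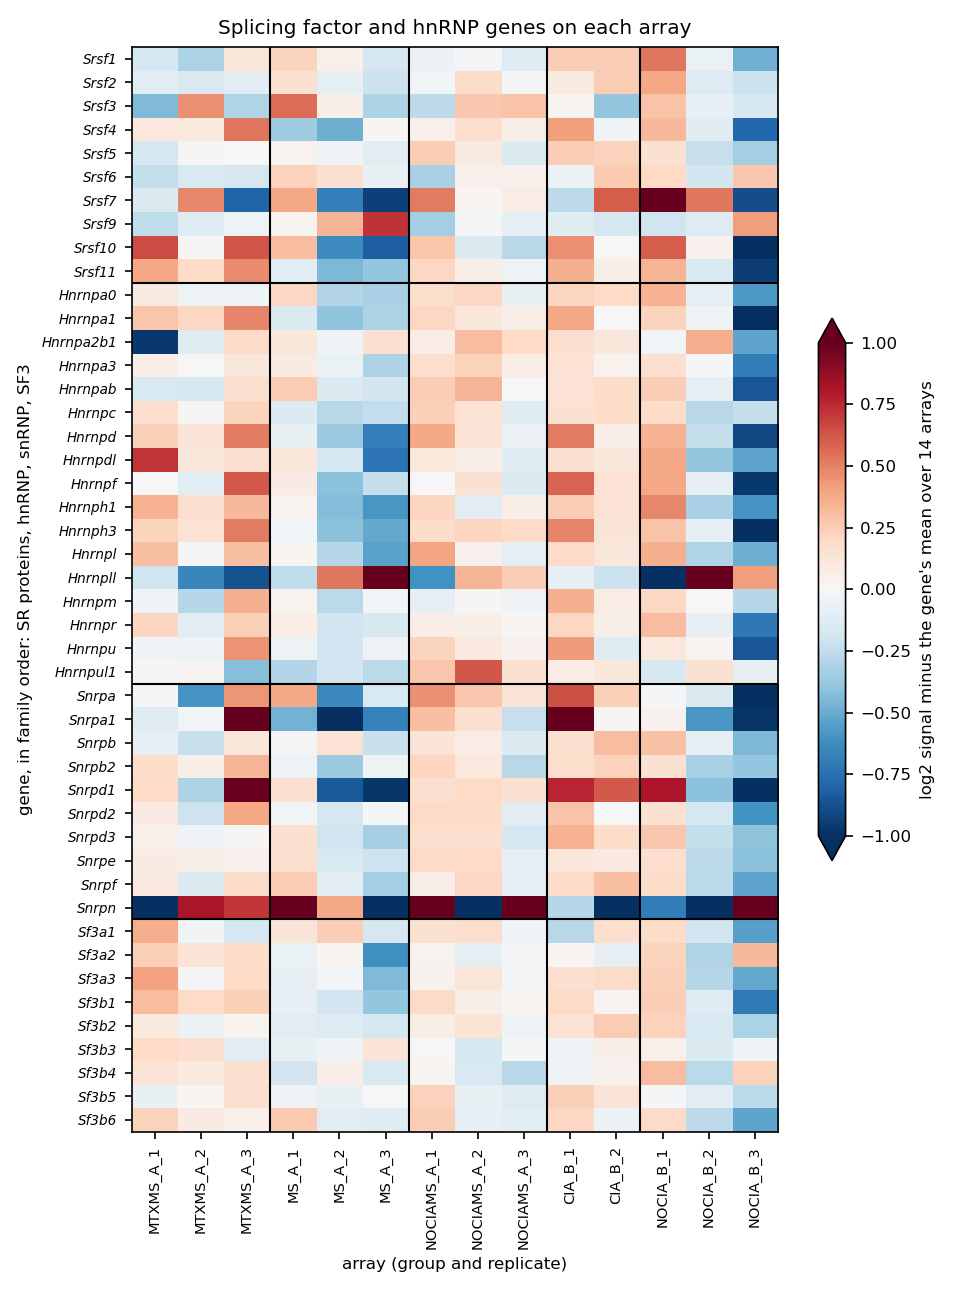
Log2 signal of the 46 tested genes (rows, by family) on the 14 arrays (columns, by group), each gene centred on its own mean and the colour scale ended at 1 log2 unit in either direction. NOCIA_B replicate 3 is the lowest array for 29 of the 46 genes, and Srsf9 and Hnrnpll run against the other genes on several arrays.

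A score, the mean over the 46 genes of the log2 signal centred on each gene's mean, was 0.04, −0.01 and 0.22 on the MTXMS_A arrays and 0.06, −0.19 and −0.27 on the MS_A arrays. It was 0.16, 0.08 and 0.01 on the NOCIAMS_A arrays, 0.22 and 0.09 on the CIA_B arrays, and 0.21, −0.15 and −0.46 on the NOCIA_B arrays. The healthy rats before therapy thus held both a high and the lowest array, with 39 of 46 genes above their own mean on NOCIA_B replicate 1 and 6 of 46 on NOCIA_B replicate 3. On MS_A replicates 2 and 3, 10 and 5 of 46 genes were above their mean, and on the CIA_B arrays 38 and 37.

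Marker genes of other blood cells moved with these scores. The mean of 11 platelet markers (centred in the same way) was 0.41, 0.55 and −0.76 on the MTXMS_A arrays, −0.04, 0.30 and 0.57 on the MS_A arrays, −0.34, −0.47 and −0.10 on the NOCIAMS_A arrays, −1.13 and −0.62 on the CIA_B arrays, and −0.61, 0.89 and 1.36 on the NOCIA_B arrays. All 11 platelet markers were above the array median on all 14 arrays, and none was at 0. Platelet scores were above 0 where the splicing scores were lowest (NOCIA_B replicates 2 and 3, MS_A replicates 2 and 3) and below 0 where they were highest (CIA_B, NOCIA_B replicate 1, MTXMS_A replicate 3), while MTXMS_A replicates 1 and 2 had high platelet scores with splicing scores near 0. The mean of 8 erythroid markers was −5.96 on MTXMS_A replicate 3, 2.57 on NOCIA_B replicate 3 and between −0.95 and 1.2 on the other 12 arrays. These 2 arrays also had the lowest mean correlation with the other arrays (0.882 and 0.855, against 0.912 to 0.934 for the rest), and the ratio of 3′ to 5′ actin signal was 5.01 and 1.97 on them, against 2.44 to 4.36. Of 13 T cell markers, 12 (Cd3e, Cd3d and Cd3g among them) were above the array median on all 14 arrays. The T cell score lay between −0.32 and 0.37, a range about as wide as that of the splicing score (−0.46 to 0.22). In bulk RNA, fewer cells of a type and less RNA per cell cannot be told apart.

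**Figure D2:**
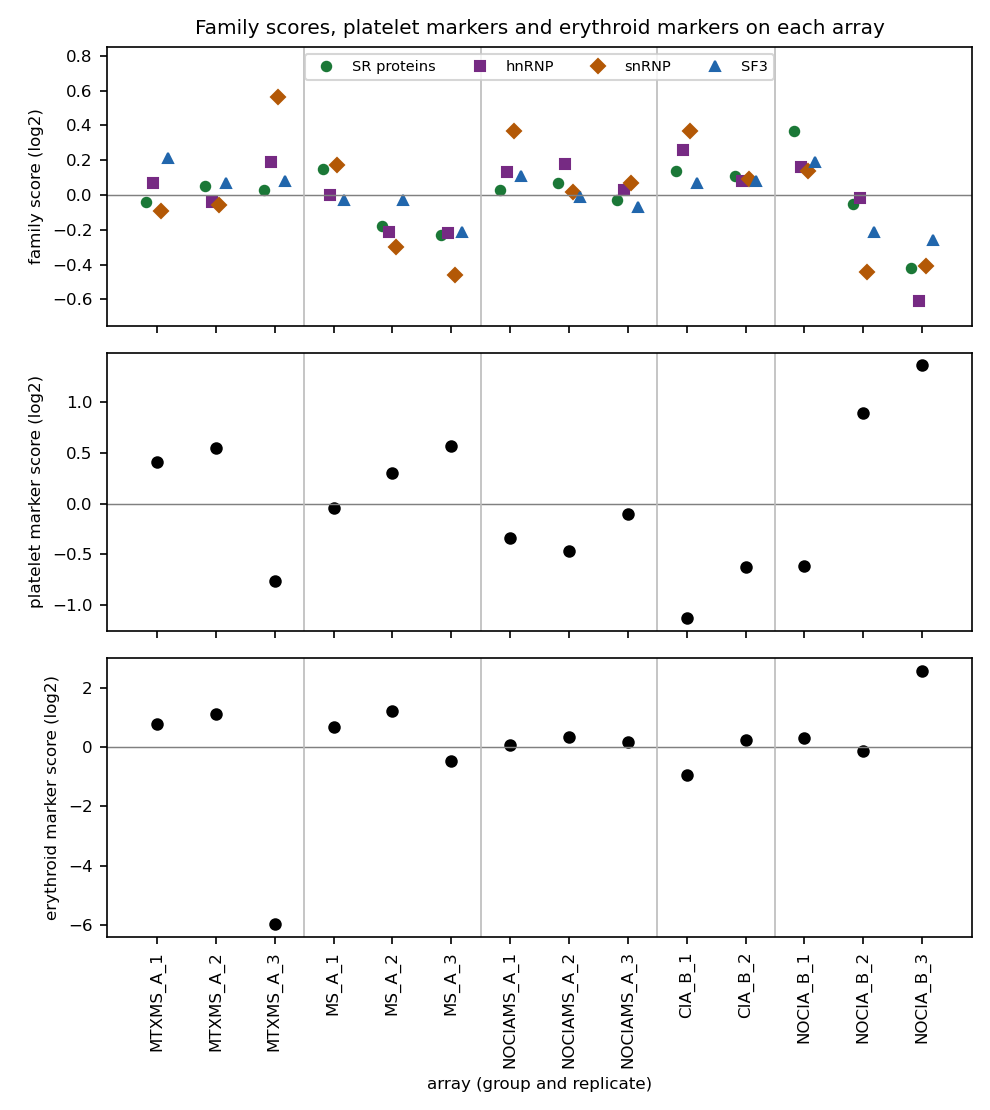
Mean centred log2 signal on each of the 14 arrays for the 4 gene families (top), 11 platelet markers (middle) and 8 erythroid markers (bottom). The family scores lie between −0.61 and 0.56. On NOCIA_B replicate 3, where the platelet score is highest, the scores of SR protein, hnRNP and SF3 genes are at their lowest, while that of snRNP genes is lower still on MS_A replicate 3 (−0.46) and NOCIA_B replicate 2 (−0.44), and the erythroid score of MTXMS_A replicate 3 is −5.96.

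No gene of the 46 passed an adjusted p of 0.05 in any of the comparisons, and neither did any of the 18515 probe sets tested, so percent called was 0 throughout. A moderated F test over the 5 groups gave its smallest p to Hnrnpul1 (limma, unadjusted p = 0.0733, adjusted p = 0.666), Snrpa1 (0.11, adjusted p = 0.666) and Hnrnpd (0.146, adjusted p = 0.669). At an unadjusted p under 0.05 that test took 0 of the 46 genes, against 6.54% of 10088 genes with 1 probe set each. The comparisons below are therefore given as sizes with their standard errors, and as counts beside the same counts over those 10088 genes. Counts at that p from fits without 1 array or with other settings have no share of all genes beside them. In such counts a shift of the whole table cannot be told from one of these 46 genes. The comparisons share arrays (MS_A enters 3 of the 6), so a gene that stands out in several of them, such as Srsf9, is not seen independently in each.

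The effect of methotrexate on top of stimulation was the comparison of MTXMS_A with MS_A, the only pair of groups with the same disease state and sampling day. Here 35 of the 46 genes were higher in MTXMS_A, with a median log2 fold change of 0.16, against 46.8% of all genes and a median of −0.04. The median was 0.22 for hnRNP genes (14 of 17 higher), 0.16 for SF3 genes (8 of 9), 0.13 for snRNP genes (9 of 10) and −0.04 for SR protein genes (4 of 10). At an unadjusted p under 0.05, 4 genes were higher and 1 lower, against 6.25% higher and 8.73% lower over all genes, which is 8.70% and 2.17% of the 46. This count of 5 in either direction rests on single arrays, being 0 without MS_A replicate 2 or without MTXMS_A replicate 3, 1 without MS_A replicate 3 or MTXMS_A replicate 1, 9 without MS_A replicate 1, and 10 and 12 without NOCIA_B replicates 3 and 1, which enter only through the shared spread. It was 2 without MTXMS_A replicate 2, without either CIA_B array, or without NOCIAMS_A replicate 2 or 3. The arrays did not overlap for 14 genes that were higher and 2 that were lower, against 11.8% in each direction over all genes.

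Snrpa1, which binds the U2 small nuclear RNA, had log2 signals of 8.85, 8.94 and 11.35 in MTXMS_A, against 8.50, 7.90 and 8.29 in MS_A. The groups did not overlap, but 1 array set the size, with a log2 fold change of 1.49 ± 0.58 (SE, limma adjusted p = 0.286) on all arrays and 0.67 without MTXMS_A replicate 3. Hnrnpd (AUF1), which binds AU-rich elements and takes part in the decay of cytokine mRNAs, had 11.53, 11.42 and 11.80 in MTXMS_A, against 11.22, 10.92 and 10.61 in MS_A. Its difference was 0.67 ± 0.30 (limma adjusted p = 0.329), with every MTXMS_A array above every MS_A array. Hnrnph1, which binds runs of G, had 14.07, 13.89 and 14.05 in MTXMS_A, against 13.76, 13.29 and 13.14 in MS_A. The difference of 0.61 ± 0.27 (limma adjusted p = 0.32) again came from groups without overlap.

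Srsf11, an SR protein known from human cells to bind U2AF, had 13.41, 13.22 and 13.49 in MTXMS_A, against 12.91, 12.57 and 12.63 in MS_A. Its difference was 0.66 ± 0.28 (limma adjusted p = 0.305), and a dimmer probe set of the gene gave 0.63. Hnrnpa1, which binds exonic silencers, averaged 13.54 ± 0.15 in MTXMS_A and 12.93 ± 0.13 in MS_A (SD, n = 3 each), a difference of 0.61 ± 0.29 (SE, limma adjusted p = 0.344). Sf3b1, the scaffold of SF3b, averaged 14.03 ± 0.06 in MTXMS_A and 13.56 ± 0.15 in MS_A (SD), a difference of 0.47 ± 0.22 (SE). Both were without overlap between the groups.

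A few genes ran the other way. Srsf9 (SRp30c) had log2 signals of 8.64, 8.76 and 8.84 in MTXMS_A, against 8.92, 9.23 and 9.61 in MS_A. It was 0.51 lower in MTXMS_A (log2 fold change −0.51 ± 0.22, limma adjusted p = 0.322) and the groups did not overlap. Hnrnpll had 7.59, 7.14 and 6.92 in MTXMS_A, against 7.54, 8.32 and 9.02 in MS_A, a difference of −1.08 ± 0.52 (limma adjusted p = 0.357) with overlap of 1 array. Without MS_A replicate 3 the Hnrnpll value was −0.71 and the Srsf9 value −0.33, so that array carried much of both. Srsf6 had a difference of −0.29 without overlap between the groups.

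Of 11 platelet markers, 9 were lower in MTXMS_A (median −0.25). All 8 erythroid markers were lower (median −1.89), their score being 0.79, 1.11 and −5.96 on the MTXMS_A arrays, against 0.68, 1.2 and −0.47 on the MS_A arrays. With the platelet score as a covariate, the differences were 1.28 for Snrpa1, 0.57 for Srsf11, 0.52 for Hnrnph1 and −0.47 for Srsf9. That fit took 9 of the 46 genes at an unadjusted p under 0.05, against 5 without the covariate (limma, lowest adjusted p = 0.142, against 0.286). Markers of NK cells (6 of 6, median −0.87), monocytes (6 of 7, median −0.74) and B cells (5 of 5, median −0.62) were also lower in MTXMS_A. The part of platelets, of erythroid, NK and B cells and of monocytes in the differences was not tested.

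**Figure D3:**
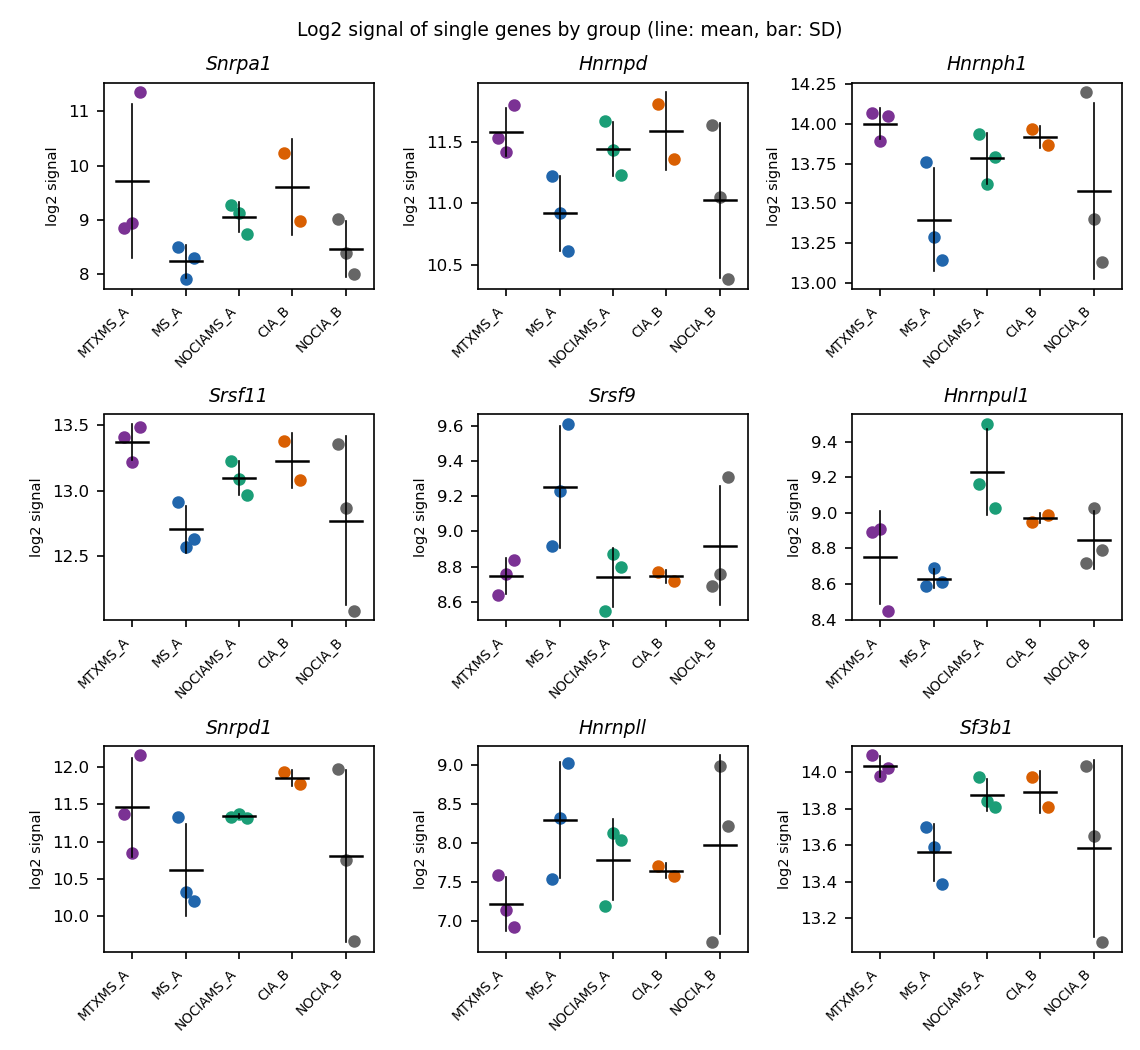
Log2 signal of 9 genes by group, with 1 point per array, the mean as a horizontal line and the SD as a vertical bar. MTXMS_A lies above MS_A without overlap for Snrpa1, Hnrnpd, Hnrnph1, Srsf11 and Sf3b1 and below it for Srsf9, and NOCIA_B spreads widely for most of the genes.

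The effect of stimulation in arthritic rats was the comparison of MS_A with CIA_B, and 40 of the 46 genes were lower in MS_A, with a median log2 fold change of −0.31. Over all genes 49.0% were lower and the median was 0.01. The 2 CIA_B arrays leave a fold change open to each of them. The hnRNP genes had a median of −0.35 (16 of 17 lower), snRNP genes −0.33 (9 of 10), SR protein genes −0.25 (7 of 10) and SF3 genes −0.19 (8 of 9). At an unadjusted p under 0.05 there were 0 genes in either direction, against 3.95% higher and 3.04% lower over all genes, although 23 were lower and 1 higher without overlap of the arrays, against 19.6% lower and 17.5% higher. The count of 0 at that p was 1 to 6 in 6 of the 14 fits without 1 array, and highest without NOCIA_B replicate 3 (6), NOCIA_B replicate 1 (4) or MS_A replicate 1 (4).

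Snrpd1, an Sm ring protein, had 11.33, 10.33 and 10.20 in MS_A, against 11.93 and 11.78 in CIA_B, a log2 fold change of −1.24 ± 0.58 (SE, limma adjusted p = 0.616). A dimmer probe set of Snrpd1 gave −0.45. Snrpa1 had 8.50, 7.90 and 8.29 in MS_A, against 10.23 and 8.98 in CIA_B, and the difference of −1.38 ± 0.65 (limma adjusted p = 0.616) was −0.76 without CIA_B replicate 1. Hnrnpd had 11.22, 10.92 and 10.61 in MS_A, against 11.81 and 11.36 in CIA_B, a difference of −0.67 ± 0.34. All 3 genes were below both CIA_B arrays on every MS_A array.

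Srsf9 was again the gene that ran against the rest, with 8.92, 9.23 and 9.61 in MS_A, against 8.77 and 8.72 in CIA_B. The difference was 0.51 ± 0.25 (limma adjusted p = 0.616), and Srsf9 was the 1 gene that was higher without overlap. Hnrnpll (0.65) and Srsf3 (0.28), a small SR protein that also acts in mRNA export, had the next smallest p among the genes that were higher.

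Platelet markers moved the other way in the same comparison, with 11 of 11 higher in MS_A and a median of 1.26. Erythroid (7 of 8, median 0.74), monocyte (6 of 7, median 0.68) and B cell markers (5 of 5, median 0.60) were higher as well, and 9 of 13 T cell markers were lower (median −0.38). The part of platelets and of these other cell types was not tested. With the platelet score as a covariate, the median of the 46 genes was 0.01 and 18 of 46 were lower, the values being −0.07 for Snrpd1, −0.23 for Snrpa1 and −0.07 for Hnrnpd. That fit holds 1 mean per group, so its platelet slope comes from the spread of the score within groups. The spread was widest in NOCIA_B (SD 1.03) and MTXMS_A (SD 0.72), against 0.19 to 0.36 in the other groups. The CIA_B arrays had 2 of the 3 lowest platelet scores, and platelet content and group cannot be told apart here.

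Arthritic and healthy rats after stimulation were compared as MS_A with NOCIAMS_A, and 40 of 46 genes were lower in MS_A (median −0.20), against 54.2% of all genes (median −0.03). Of the families, hnRNP genes had a median of −0.26 (16 of 17 lower), snRNP genes −0.17 (10 of 10), SR protein genes −0.10 (7 of 10) and SF3 genes −0.05 (7 of 9). At an unadjusted p under 0.05, 1 gene was lower and 1 higher, against 2.48% and 1.88% of all genes. These 2 genes in either direction were 1 to 4 in the fits without 1 array, with 4 without NOCIA_B replicate 3. Without overlap of the arrays, 11 were lower and 1 higher, against 9.91% and 7.31%.

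Hnrnpul1, an hnRNP U relative linked to transcription and the response to DNA breaks, had 8.59, 8.69 and 8.61 in MS_A, against 9.16, 9.50 and 9.03 in NOCIAMS_A. The gap of −0.60 ± 0.19 (SE, limma unadjusted p = 0.00886, adjusted p = 0.81) was the smallest unadjusted p of any of the 46 genes in the 6 comparisons of groups, and the groups did not overlap. It was −0.68 with the platelet score as a covariate. Srsf9 was higher, with 8.92, 9.23 and 9.61 in MS_A against 8.55, 8.87 and 8.80 in NOCIAMS_A, a difference of 0.51 ± 0.22 (limma adjusted p = 0.81).

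Hnrnpd (−0.52) and Hnrnpc (−0.31), which binds runs of U in introns, followed Hnrnpul1 among the genes that were lower in MS_A than in NOCIAMS_A. Hnrnpll (0.51) and Srsf6 (0.18) followed Srsf9 among those that were higher. The platelet markers were higher in MS_A for 10 of 11 (median 0.72), and the NK cell markers for 6 of 6 (median 0.67). With the platelet score as a covariate the median of the 46 genes was −0.02, with 24 of 46 lower. The part of platelets and NK cells was not tested.

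The effect of arthritis before therapy was the comparison of CIA_B with NOCIA_B. Here 39 of 46 genes were higher in CIA_B, with a median of 0.31, against 57.0% of all genes and a median of 0.08. The snRNP genes had the highest median, 0.39 (9 of 10 higher), followed by hnRNP genes with 0.32 (16 of 17), SF3 genes with 0.27 (7 of 9) and SR protein genes with 0.21 (7 of 10). No gene of the 46 had an unadjusted p under 0.05, against 2.85% higher and 5.27% lower of all genes (limma). This count rests on 1 array, being 23 of 46 in either direction without NOCIA_B replicate 1 (median log2 fold change 0.53, lowest adjusted p = 0.102) and 12 with array weights, and between 0 and 2 without any other single array. Over the whole table, 168 probe sets were called without NOCIA_B replicate 1 and 765 with array weights, against 0 with all arrays and no weights. The arrays did not overlap for 5 genes that were higher and for 0 that were lower, against 12.7% and 8.65%.

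Snrpa, a protein of the U1 snRNP that binds its RNA, had 9.68 and 9.28 in CIA_B, against 9.03, 8.90 and 8.03 in NOCIA_B, a log2 fold change of 0.82 ± 0.39 (SE, limma adjusted p = 0.583). Srsf5, an SR protein, had 13.20 and 13.19 in CIA_B, against 13.11, 12.73 and 12.62 in NOCIA_B, a difference of 0.38 ± 0.20. In both, each CIA_B array lay above each NOCIA_B array. Snrpd1 had 11.93 and 11.78 in CIA_B, against 11.98, 10.76 and 9.67 in NOCIA_B, so its difference of 1.05 ± 0.58 came with overlap. Without NOCIA_B replicate 3 the values were 0.51 for Snrpa and 0.48 for Snrpd1, and without NOCIA_B replicate 1 Snrpd1 was at 1.64.

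Among the 7 genes that were lower, the smallest p went to Srsf9 (−0.17), Srsf3 (−0.20) and Hnrnpll (−0.33), and the lowest value was −0.54 ± 1.27 for the dim Snrpn. Each of the first 3 changed sign when 1 array was left out, Hnrnpll to 0.17 without NOCIA_B replicate 2 (but −0.95 without NOCIA_B replicate 1 and −1.06 with array weights), Srsf3 to 0.01 without CIA_B replicate 2 and Srsf9 to 0.02 without NOCIA_B replicate 3. All 11 platelet markers (median −1.65) and all 8 erythroid markers (median −1.32) were lower in CIA_B. All 6 neutrophil markers (median 0.83) and 11 of 13 T cell markers (median 0.34) were higher. The part of platelets, erythroid cells, neutrophils and T cells was not tested. With the platelet score as a covariate, the median of the 46 genes was −0.13 and 10 of 46 were higher, and Snrpd1 was at −0.40.

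Stimulation in healthy rats was the comparison of NOCIAMS_A with NOCIA_B, and 37 of 46 genes were higher in NOCIAMS_A (median 0.22), against 61.8% of all genes (median 0.10). All 10 snRNP genes were higher (median 0.28), with 15 of 17 hnRNP genes (0.26), 6 of 9 SF3 genes (0.14) and 6 of 10 SR protein genes (0.06). There were 0 genes at an unadjusted p under 0.05, against 3.49% higher and 2.25% lower of all genes, and 2 genes were higher and 0 lower without overlap, against 7.24% and 2.54%. Without NOCIA_B replicate 1, 13 of 46 genes reached that p in either direction and the median was 0.44, whereas the count was 0 to 2 without any other single array. Hnrnpul1 had 9.16, 9.50 and 9.03 in NOCIAMS_A, against 8.72, 9.03 and 8.79 in NOCIA_B, a difference of 0.38 ± 0.19 (SE, limma adjusted p = 0.747). Snrpa had 9.50, 9.31 and 9.17 in NOCIAMS_A, against 9.03, 8.90 and 8.03 in NOCIA_B, a difference of 0.67 ± 0.35. Without NOCIA_B replicate 3 the value of Snrpa was 0.36, that of Hnrnph3 was 0.10 in place of 0.58, and the median of the 46 genes was 0.03. Neutrophil (6 of 6, median 0.90) and monocyte markers (7 of 7, median 0.62) were higher in NOCIAMS_A, and NK cell (6 of 6, median −0.30) and erythroid markers (7 of 8, median −0.66) were lower, and their part was not tested. Platelet markers were lower in NOCIAMS_A for 11 of 11 (median −0.69), and the median of the 46 genes was −0.02 with their score as a covariate. The part of platelets was not tested either.

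MTXMS_A was also set against CIA_B, arthritic rats before therapy. Here 28 of 46 genes were lower (median −0.03), against 52.7% of all genes (median −0.02), and 0 had an unadjusted p under 0.05, against 2.32% higher and 2.77% lower of all genes. Without overlap, 3 were higher and 11 lower, against 8.90% and 13.2%. The 3 that were higher were SF3 genes, whose median was 0.07 (7 of 9 higher), whereas SR protein genes had −0.14, snRNP genes −0.13 and hnRNP genes −0.03. Srsf1, an SR protein that acts in constitutive and alternative splicing, had 11.54, 11.39 and 11.83 in MTXMS_A, against 11.96 and 11.96 in CIA_B, a log2 fold change of −0.37 ± 0.27 (SE). Its other, dimmer probe set gave 0.26, and the mean of both −0.05, so the direction depends on the probe set. Srsf2 (−0.29) and Srsf5 (−0.29) were likewise below both CIA_B arrays on every MTXMS_A array.

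Sf3a2 had 10.94, 10.84 and 10.89 in MTXMS_A, against 10.72 and 10.62 in CIA_B, a difference of 0.22. Hnrnpdl (0.20) and Sf3b4 (0.13) followed by p among the genes that were higher. The dimmer probe sets of Hnrnpdl gave −0.05 and −0.14, and the mean of all its probe sets 0.00. Of the remaining landmark genes, Hnrnpa2b1 had 11.59, 12.44 and 12.75 in MTXMS_A, against 12.73 and 12.67 in CIA_B, and Hnrnpl, known from human cells to repress Ptprc exons, had 13.81, 13.50 and 13.81 in MTXMS_A, against 13.70 and 13.62 in CIA_B. Sf3a1 had 9.20, 8.80 and 8.66 in MTXMS_A, against 8.56 and 9.0 in CIA_B. These 3 overlapped between the groups. All 11 platelet markers were higher in MTXMS_A than in CIA_B (median 0.80) and 12 of 13 T cell markers were lower (median −0.54). Erythroid (7 of 8, median −1.27), NK cell (5 of 6, median −0.60) and neutrophil markers (5 of 6, median −0.53) were lower too. The erythroid score of MTXMS_A replicate 3 was −5.96. The part of these cell types was not tested. With the platelet score as a covariate, the median of the 46 genes was 0.23, with 12 of 46 lower.

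**Figure D4:**
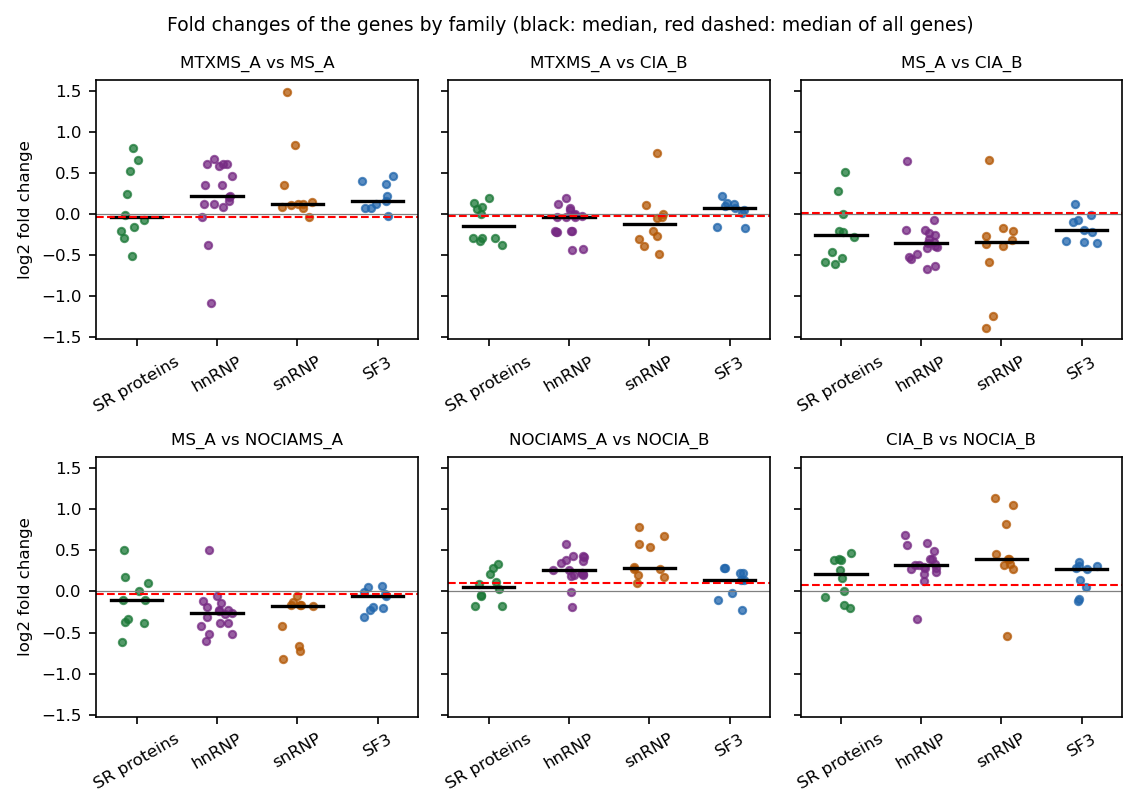
Log2 fold change of each tested gene (points) by family in the 6 comparisons, with the family median in black and the median of all 10088 genes as a red dashed line. In MS_A vs CIA_B and MS_A vs NOCIAMS_A all 4 family medians lie below the line of all genes, in MTXMS_A vs MS_A those of hnRNP, snRNP and SF3 genes lie above it.

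The difference between the responses of arthritic and healthy rats to stimulation (MS_A vs CIA_B minus NOCIAMS_A vs NOCIA_B) was tested in the same fit. It was below 0 for 40 of 46 genes, with a median of −0.55, against 56.6% of all genes and a median of −0.10. At an unadjusted p under 0.05, 6 genes were below 0 (13.0%) and 0 above, against 6.27% below and 6.10% above over all genes. Single arrays moved this count, to 27 of 46 in either direction without NOCIA_B replicate 1, 2 without NOCIA_B replicate 3, 4 without CIA_B replicate 2, 1 without MS_A replicate 2 or 3 or NOCIAMS_A replicate 1, and 0 without CIA_B replicate 1 or NOCIAMS_A replicate 2. It was 23 with array weights. Over the whole table, 980 probe sets were called without NOCIA_B replicate 1 and 1651 with array weights, against 0 with all arrays and no weights. The 6 were Hnrnpul1 (−0.73 ± 0.29), Hnrnpd (−1.09 ± 0.45), Snrpa (−1.24 ± 0.52), Hnrnph3 (−1.21 ± 0.51), Snrpd1 (−1.77 ± 0.77) and Snrpa1 (−1.96 ± 0.88), with adjusted p between 0.36 and 0.376 (limma). For 2 of them the probe set mattered. In MS_A vs CIA_B and NOCIAMS_A vs NOCIA_B the Hnrnph3 probe set used gave −0.63 and 0.58, and the dimmer one 0.05 and 0.02. For Snrpd1 the probe set used gave −1.24 and 0.54, and the dimmer one −0.45 and 0.01. The difference of responses is built from the CIA_B and NOCIA_B arrays of the 2 comparisons above and does not add to them. Leaving out NOCIA_B replicate 3 gave a median of −0.33 and leaving out NOCIA_B replicate 1 one of −0.72, and it was 0.06 with the platelet score as a covariate.

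None of the other genes of the splicing machinery, taken in 6 lists, passed an adjusted p of 0.05 in any comparison. The counts in MTXMS_A against MS_A stand beside 46.8% of all genes higher, and 6.25% higher and 8.73% lower at an unadjusted p under 0.05. There, of 31 tested genes of the tri-snRNP and catalytic spliceosome 26 were higher (median 0.34), 8 of them and 1 lower gene with an unadjusted p under 0.05, and 12 of 13 genes of splice site recognition were higher (median 0.48), 3 of them at that p. Kinases of SR proteins were higher for 6 of 7 (median 0.32, 1 at that p), other splicing regulators for 16 of 26 (median 0.09, 4 higher and 1 lower at that p), genes of the exon junction complex and nonsense-mediated decay for 6 of 9 (median 0.13, 0 at that p) and LSm proteins for 4 of 11 (median −0.15, 2 lower at that p).

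Prpf38b, a relative of a yeast tri-snRNP protein, averaged 11.20 in MTXMS_A and 10.43 in MS_A, a log2 fold change of 0.77 ± 0.20 (SE, limma adjusted p = 0.188). Eftud2, the GTPase of the U5 snRNP, averaged 9.03 in MTXMS_A and 9.73 in MS_A, a difference of −0.70 ± 0.19 (limma adjusted p = 0.188). Tra2a, an SR-like protein, averaged 12.36 in MTXMS_A and 11.57 in MS_A (0.79 ± 0.31), and Clk1, a kinase of SR proteins, 13.16 in MTXMS_A and 12.50 in MS_A (0.66 ± 0.29). Ptbp2 averaged 8.83 in MTXMS_A and 8.03 in MS_A (0.80 ± 0.25) whereas Ptbp3, a polypyrimidine tract binding protein like it, averaged 11.72 in MTXMS_A and 12.26 in MS_A (−0.54 ± 0.18). Lsm2, of the ring on U6 and on decaying mRNA, averaged 8.01 in MTXMS_A and 8.54 in MS_A (−0.53 ± 0.20). In each of these genes the MTXMS_A and MS_A arrays did not overlap.

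In MS_A against CIA_B, all 13 genes of splice site recognition were lower (median −0.44), with 27 of 31 tri-snRNP and catalytic genes (−0.38), 6 of 7 kinases (−0.47), 20 of 26 other regulators (−0.21), 6 of 9 exon junction and decay genes (−0.16) and 6 of 11 LSm genes (−0.06), against 49.0% of all genes (median 0.01). U2af1, which reads the 3′ splice site, averaged 11.14 in MS_A and 11.86 in CIA_B (−0.73 ± 0.29), and Lsm3 11.22 in MS_A and 11.93 in CIA_B (−0.71 ± 0.27). Clk3 averaged 9.94 in MS_A and 10.44 in CIA_B (−0.50 ± 0.25), and Eif4a3, the anchor of the exon junction complex, 11.81 in MS_A and 12.42 in CIA_B (−0.60 ± 0.31). In healthy rats Smg5, a factor of nonsense-mediated decay, averaged 9.03 in NOCIAMS_A and 9.85 in NOCIA_B (−0.83 ± 0.32), with overlap of the arrays. The adjusted p of U2af1, Lsm3, Clk3 and Eif4a3 in MS_A against CIA_B was 0.616 and that of Smg5 was 0.747.

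The choice of probe set mattered for the genes that have several. For 15 of the 47 genes more than 1 probe set was tested. Signs were read from rounded values, with a rounded 0 as a sign of its own. So read, signs differed for 7 of 15 genes in MTXMS_A vs MS_A, MS_A vs CIA_B and MTXMS_A vs CIA_B. They differed for 8 in NOCIAMS_A vs NOCIA_B and for 9 in CIA_B vs NOCIA_B and MS_A vs NOCIAMS_A. Only a rounded 0 placed Srsf6 in the count of CIA_B vs NOCIA_B (0.19, 0.0 and 0.05). The same held for Hnrnpu in MTXMS_A vs CIA_B (−0.04, −0.42 and −0.0). In MTXMS_A against MS_A the 3 probe sets of Hnrnpa1 gave 0.61, 0.44 and 0.13, the 2 of Srsf1 gave −0.16 and 0.35, and the 5 of Hnrnpa3 gave 0.16, −0.27, 0.05, −0.15 and 0.04. Probe sets of 1 gene can read different transcript ends, so a value here belongs to its probe set.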

How the data were processed

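RNA of peripheral blood mononuclear cells from 14 samples was hybridised to Affymetrix rat230 2.0 arrays. The authors made the deposited intensities with MAS5 in the affy package (version not given in the sources used here), a linear signal per probe set scaled on each array to a trimmed mean of 500 after removal of 2% of values at each end. Such scaling sets every array to 1 common level, so only differences relative to the bulk of probe sets are measured. The deposited intensities were taken to log2 without a pseudocount. After 57 control probe sets were left out, 18515 of 31042 probe sets were tested, those brighter than the median probe set in 2 or more of the 14 arrays, with limma 3.58.1 (R 4.3.3), with 1 mean per group over all 14 arrays, moderated two-sided tests and Benjamini-Hochberg adjustment over all 18515 at 0.05. The script was tested on simulated data.

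Groups came from the sample titles, and the study's group codes were matched to the labels' names by their description. Gene symbols came from the platform annotation, in which 20826 probe sets have 1 symbol, 436 several and 9780 none. Probe sets with several symbols were left out of the gene lists (8 of them with a symbol of the rule). The lists of splicing genes and cell markers, like the 47 genes themselves, were chosen with earlier results of these data known. Named were the 3 genes per direction with the smallest p in each comparison, the 3 smallest of the F test, the 5 brightest, 5 dimmest and 5 most variable genes, some landmark genes and the 2 genes per splicing list with the smallest p. Genes that other passages single out were chosen after their values were seen. Arrays carry no read depth, and the number of arrays limits the precision. Same-numbered arrays are different rats, and the numbers were not used as pairs.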

Additional observations from a re-analysis of the deposited data

How the results depend on the processing

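No gene of the 46 was called when 1 array was left out (0 to 0 genes in every comparison), and none under quantile normalization, without the filter, with a pseudocount of 32, with the mean of all probe sets, without moderation, with only the groups compared, with the replicate block, with the platelet score, or without both arrays that stand apart. Without moderation 5 probe sets of the whole table were called in MTXMS_A vs MS_A, 1 in MS_A vs NOCIAMS_A and 3 over the 5 groups. With array weights, 1 gene was called in the difference of responses, Snrpd1 (−1.86, limma adjusted p = 0.0393), where 1651 probe sets of the whole table were called and the weights of NOCIA_B replicates 1 and 3 were 0.321 and 0.289. Array weights also called 765 probe sets in CIA_B vs NOCIA_B. Without NOCIA_B replicate 1, 168 probe sets were called in CIA_B vs NOCIA_B and 980 in the difference of responses, none of them a gene of the 46 (lowest adjusted p = 0.102 and 0.0552, limma). The study's rule (unadjusted p of 0.05 and a fold of 2) took 1 gene of the 46 in MTXMS_A vs MS_A (Snrpa1), against 402 of all 10088 genes. It took 5 of the 46 in the difference of responses (Hnrnpd, Snrpa, Hnrnph3, Snrpd1 and Snrpa1), against 912 of the 10088. That Hnrnph3 and Snrpd1 are among the 5 holds for the probe set used, and the dimmer probe set of each changed less in both comparisons.

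With the platelet score as a covariate the median was −0.13 in CIA_B vs NOCIA_B (10 of 46 above 0), 0.01 in MS_A vs CIA_B (18 below 0), 0.23 in MTXMS_A vs CIA_B (12 below 0), −0.02 in NOCIAMS_A vs NOCIA_B (19 above 0), −0.02 in MS_A vs NOCIAMS_A (24 below 0) and 0.06 in the difference of responses (17 below 0), whereas MTXMS_A vs MS_A kept its direction. In the same fit Snrpd1 was at −0.40, Srsf9 at 0.08 and Hnrnpll at 0.77 in CIA_B vs NOCIA_B, Hnrnpll at −0.24 in MS_A vs CIA_B and −0.71 in the difference, and Srsf1 at 0.02 in MTXMS_A vs CIA_B. Other causes of these shifts were not tested. The replicate numbers do not pair animals across groups, since rats were killed at sampling. Correlations of same-numbered deviations lay between −0.42 and 0.37 (median 0.05), and 8 of 14 arrays were closest to their own number. These values do not settle whether same-numbered arrays share anything else. With the replicate block the median of MTXMS_A vs CIA_B was 0.00, and no gene was called.

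Without both arrays that stand apart (NOCIA_B replicate 3 and MTXMS_A replicate 3) the difference of responses had a median of −0.33, and Srsf9 was at 0.02 in CIA_B vs NOCIA_B and 0.01 in NOCIAMS_A vs NOCIA_B. With array weights Sf3b4 was at 0.03 and Srsf6 at 0.06 in NOCIAMS_A vs NOCIA_B, and Srsf6 at −0.03 in the difference. Over the fits without 1 array, the median lay between 0.13 and 0.27 in MTXMS_A vs MS_A, −0.34 and −0.24 in MS_A vs CIA_B, −0.29 and −0.13 in MS_A vs NOCIAMS_A, 0.11 and 0.53 in CIA_B vs NOCIA_B, 0.03 and 0.44 in NOCIAMS_A vs NOCIA_B, and −0.72 and −0.33 in the difference. In MTXMS_A vs CIA_B it lay between −0.13 and 0.01, above 0 without CIA_B replicate 1 and without MTXMS_A replicate 2. Srsf9 lay between −0.29 and 0.02 in CIA_B vs NOCIA_B and between −0.30 and 0.01 in NOCIAMS_A vs NOCIA_B, Srsf3 between −0.41 and 0.01 and Hnrnpll between −0.95 and 0.17 in CIA_B vs NOCIA_B. A fit without 1 CIA_B array assumes that the lone array varies like the other groups. Current gene symbols changed no member. The number of arrays (2 or 3 per group) limits what these comparisons can show.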
